A study of Mus musculus with 14 samples.

Results

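The nuclear genes of oxidative phosphorylation were examined in the liver of 14 mice, of which 7 received vehicle and 7 received indole. The genes were taken by symbol from all protein-coding genes outside the mitochondrial chromosome: *Ndufa*, *Ndufb*, *Ndufc*, *Ndufs* and *Ndufv* genes for complex I, *Sdha* to *Sdhd* for complex II, *Uqcr* genes for complex III, the *Cox4* to *Cox8* families for complex IV and *Atp5* genes for complex V. This gave 87 of the 55487 genes in the count table, with 38 in complex I, 4 in complex II, 8 in complex III, 19 in complex IV and 18 in complex V. Of these, 79 passed the filter on low counts and were tested together with all 12653 genes that did.

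All animals were male TALLYHO/JnG mice, an inbred line with polygenic type 2 diabetes, aged 8–12 weeks. The vehicle group was gavaged with water alone, and the indole group with indole at 20 mg/kg, in repeated daily doses over a week and again around the metabolic tests. RNA of the right liver lobe was made into strand-specific polyA libraries, one for each mouse, and the total count ranged from 15197498 to 21060376 per library. The comparison asked how liver gene expression differed between treated and untreated diabetic mice.

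Complexes I to IV pass electrons from NADH and succinate to oxygen. Complexes I, III and IV pump protons out of the mitochondrial matrix, and complex V, the ATP synthase, uses the returning protons to make ATP. A small number of the subunits is encoded by mitochondrial DNA and all others are encoded in the nucleus, so that the complexes depend on both genomes. The liver draws on this pathway for the ATP spent on making glucose and urea and for oxidising fatty acids.

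Nuclear genes of the pathway are known to share binding sites for NRF1, for the ETS factor GABPA, for the oestrogen-related receptor ERRalpha and for YY1, and so the promoter windows of the genes were searched. RefSeq windows on build GRCm38.p6, reaching from 250 bases before to 50 bases after the start, were matched to 69 of the 87 genes by symbol or gene identifier and gave 73 windows. The motif of NRF1, GCGC and TGCGC with any 1 base between them, lay on either strand in 18 member windows (24.7%) and in 4.60% of all 32851 windows. The ETS motif CCGGAAG lay in 17 (23.3%) against 8.86%, and the YY1 motif AAGATGGC in 10 (13.7%) against 2.75%. The ERRalpha motif TCAAGGTCA lay in 2 (2.74%) against 0.423%, and the TATA box letters TATAAA in 9 (12.3%) against 13.6%. The motifs do not contain each other, a match describes the letters only, and no binding was measured.

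One window is shown for each complex, that of the gene with the highest level per length among those with an NRF1, ETS, ERRalpha or YY1 match, so that the shared letters can be seen. Capitals mark the matches on either strand. All 5 genes lie on the minus strand, and each sequence is written 5′ to 3′ along its gene. The *Ndufb6* window (chr4:40279372-40279671) and the *Uqcr11* window (chr10:80406772-80407071) each held 1 ETS match. The *Sdhd* window (chr9:50603800-50604099) held NRF1, ETS and ERRalpha matches. The *Cox6a1* window (chr5:115348909-115349208) held 2 NRF1 matches and 1 ETS match, and the *Atp5g3* window (chr2:73911277-73911576) held NRF1 and ERRalpha matches.
Ndufb6: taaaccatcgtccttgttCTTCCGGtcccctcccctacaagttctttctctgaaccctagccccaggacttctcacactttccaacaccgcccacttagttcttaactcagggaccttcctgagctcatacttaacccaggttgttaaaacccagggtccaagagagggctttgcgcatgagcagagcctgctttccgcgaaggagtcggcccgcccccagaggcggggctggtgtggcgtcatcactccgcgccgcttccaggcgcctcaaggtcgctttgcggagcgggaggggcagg
Sdhd: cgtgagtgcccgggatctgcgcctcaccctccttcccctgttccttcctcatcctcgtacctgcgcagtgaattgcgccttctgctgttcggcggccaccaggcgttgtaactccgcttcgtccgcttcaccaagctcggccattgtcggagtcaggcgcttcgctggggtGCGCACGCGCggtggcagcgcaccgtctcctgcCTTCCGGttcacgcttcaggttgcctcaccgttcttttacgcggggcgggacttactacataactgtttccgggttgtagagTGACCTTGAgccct
Uqcr11: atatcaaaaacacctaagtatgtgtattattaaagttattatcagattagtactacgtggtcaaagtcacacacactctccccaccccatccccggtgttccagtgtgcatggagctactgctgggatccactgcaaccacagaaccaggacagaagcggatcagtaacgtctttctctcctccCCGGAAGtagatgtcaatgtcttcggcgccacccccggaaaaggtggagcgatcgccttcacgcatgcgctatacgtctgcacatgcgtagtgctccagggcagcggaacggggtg
Cox6a1: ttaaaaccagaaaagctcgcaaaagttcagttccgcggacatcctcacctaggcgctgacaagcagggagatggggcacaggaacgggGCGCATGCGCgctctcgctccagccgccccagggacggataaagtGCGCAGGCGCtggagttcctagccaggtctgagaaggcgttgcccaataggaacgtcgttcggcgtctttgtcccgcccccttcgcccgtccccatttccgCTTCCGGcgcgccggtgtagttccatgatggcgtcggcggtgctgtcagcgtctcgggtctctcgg
Atp5g3: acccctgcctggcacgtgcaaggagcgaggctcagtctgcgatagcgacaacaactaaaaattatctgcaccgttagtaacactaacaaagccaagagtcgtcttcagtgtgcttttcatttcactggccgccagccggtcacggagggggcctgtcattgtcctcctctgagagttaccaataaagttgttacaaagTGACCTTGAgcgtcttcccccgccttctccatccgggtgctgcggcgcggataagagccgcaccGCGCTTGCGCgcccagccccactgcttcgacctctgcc

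The 79 genes tested were nearly all slightly higher in the indole group, and none of them passed the adjusted test. The log2 fold change was above 0 for 74 and below 0 for 5, where 51.3% of all genes tested lay above 0, and the median was 0.11 against 0.00 over all genes tested. In edgeR's quasi-likelihood test with Benjamini-Hochberg adjustment, 0 of the 79 had an adjusted *p* below 0.05 (0% of all genes tested), and the lowest adjusted *p* over all genes was 0.998. DESeq2, run on the same genes, gave 1 gene with an adjusted *p* below 0.05, which was not among the 79. At an unadjusted *p* below 0.05, edgeR gave 1 of the 79, *Ndufa4l2*, beside 3.81% of all genes tested, of which 1.53% were higher and 2.28% lower in the indole group. The vehicle and indole values overlapped for all 79 genes, as they did for all but 0.0474% of the genes tested. Standard errors of the log2 fold changes ran from 0.065 to 0.43 with a median of 0.098, so that a typical difference of 0.11 was about as large as its own error.

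**Figure D1:**
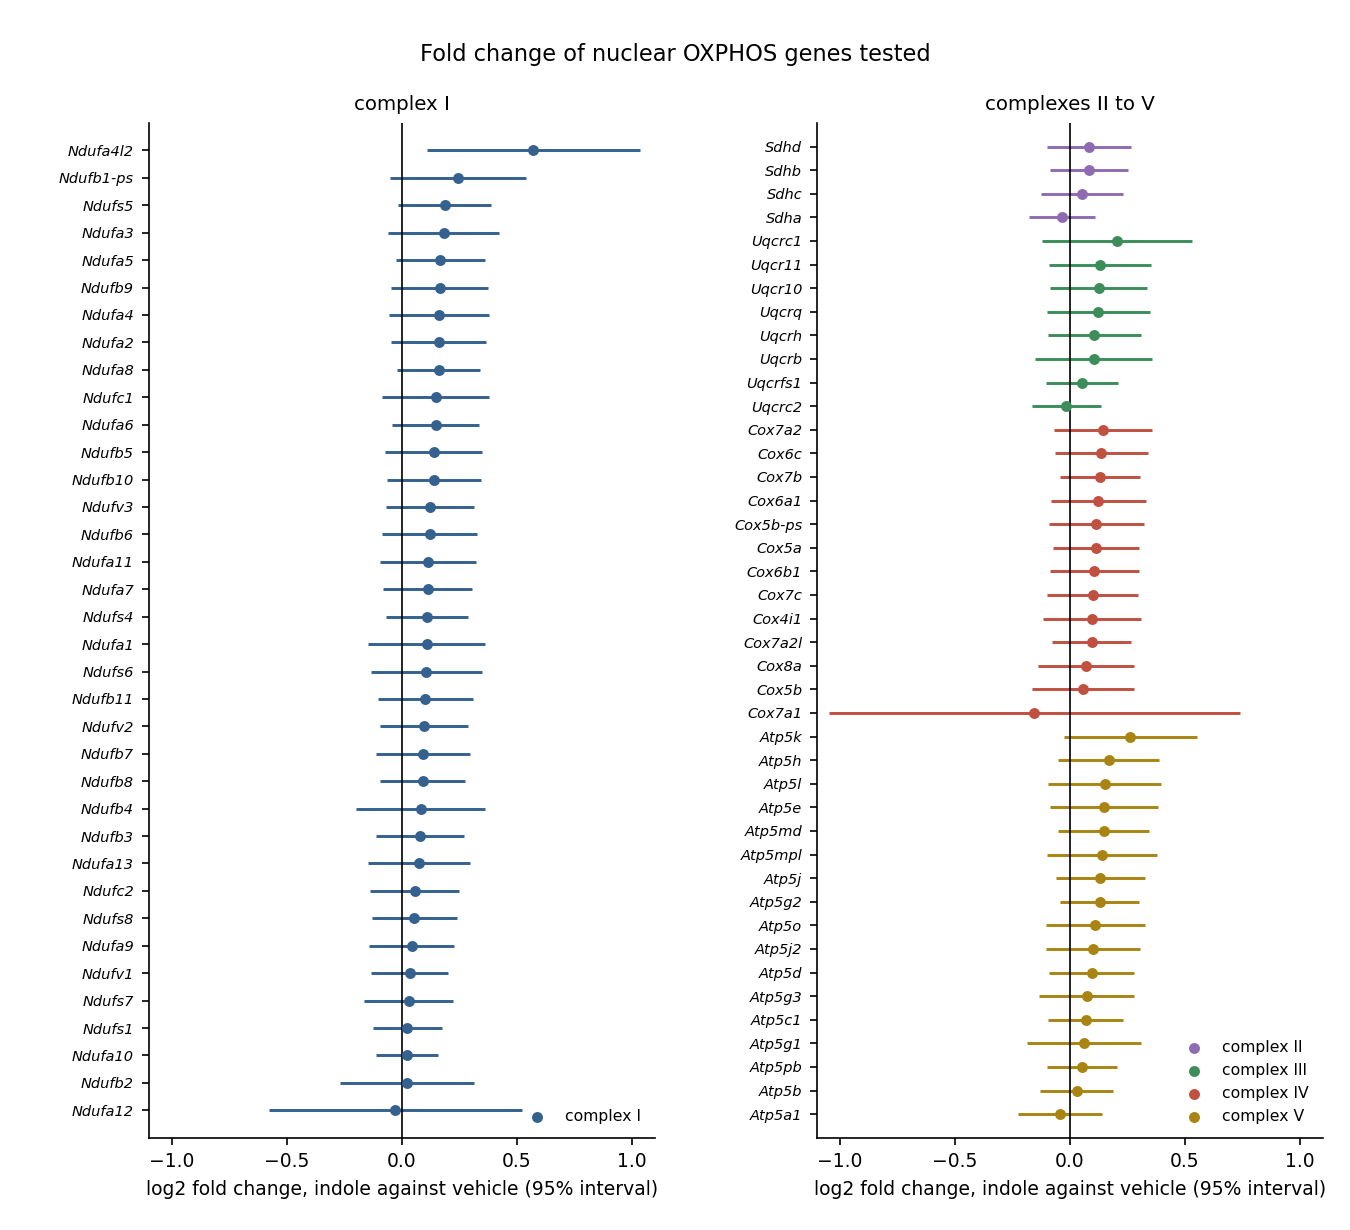
Log2 fold change of the tested genes, all but 1 of complex I drawn, indole against vehicle (*n*=7 each), with its 95% interval from edgeR, by complex; the vertical line marks 0. Nearly all points lie to the right of 0, the 5 exceptions being 1 gene in each complex, and the interval lies wholly above 0 only for *Ndufa4l2*.

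The 5 complexes gave much the same central value. The median log2 fold change was 0.11 in complex I (36 genes higher and 1 lower), 0.07 in complex II (3 and 1), 0.11 in complex III (7 and 1), 0.11 in complex IV (12 and 1) and 0.11 in complex V (16 and 1). The 5 genes below 0 were *Ndufa12* (−0.03), *Sdha* (−0.03), *Uqcrc2* (−0.01), *Cox7a1* (−0.16) and *Atp5a1* (−0.04), 1 in each complex. In complexes I and V the core subunits, taken as sets, had lower medians than the other subunits. The 6 tested core subunits of complex I, which carry the flavin and the iron-sulphur clusters, had a median of 0.03, and the other 31 complex I genes a median of 0.12. The 5 subunits of the F1 head of complex V, where ATP is made, had a median of 0.07, and the other 12 genes of complex V one of 0.13. These subsets also differed in coding length. The median was 355.5 residues for the core subunits of complex I against 130 for the others. It was 298 for the F1 subunits against 122 for the other genes of complex V. The part of length in these medians was not tested. These are descriptions of the fitted values, and no test of the difference between subsets was made.

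Levels per length differed widely between the genes of 1 complex. On the scale of CPM (counts scaled to the size of the library, after TMM normalisation) per kb of exon, averaged over the 14 mice, the medians of the tested genes were 58.3 in complex I, 118 in complex II, 161 in complex III, 145 in complex IV and 74.8 in complex V. The highest genes were *Ndufa4* (185), *Sdhd* (183), *Uqcr10* (219), *Cox6a1* (364) and *Atp5b* (365), in the order of the complexes. The lowest tested genes were *Ndufa4l2* (1.29), *Sdhc* (55.6), *Uqcrc1* (3.65), *Cox7a1* (1.30) and *Atp5l* (18.3). The exon length counts all annotated isoforms, so a gene with a long rarely used isoform is placed too low on this scale. The 8 genes that were not tested were *Ndufs3*, *Cox4i2*, *Cox6a2*, *Cox6b2*, *Cox7b2*, *Cox8b*, *Cox8c* and a second entry for *Atp5o*.

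**Figure D2:**
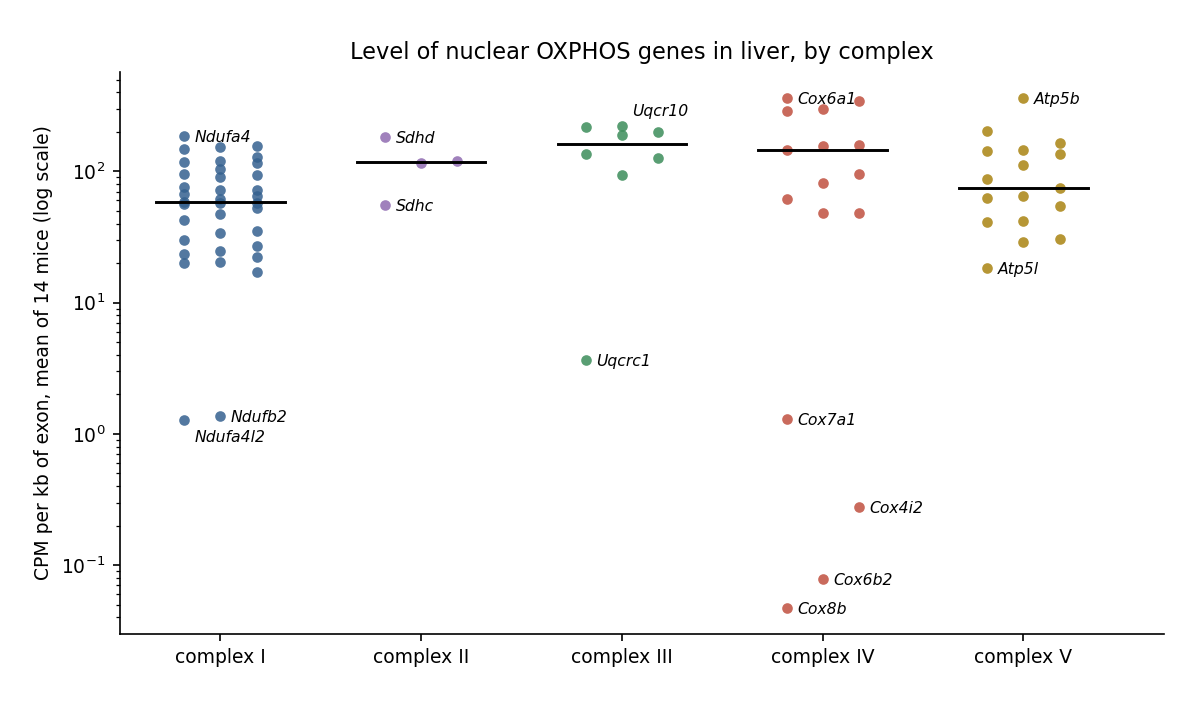
Mean CPM per kb of exon over the 14 mice (log axis) for each gene with at least 1 read, by complex; black lines are the medians of the tested genes, and genes with 0 reads cannot be drawn on this axis. Tested genes lie between 1.29 (*Ndufa4l2*) and 365 (*Atp5b*), and *Cox4i2*, *Cox6b2* and *Cox8b* of complex IV lie at or under 0.276.

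Complex I takes electrons from NADH. *Ndufa4l2* (chr10:127514967-127517154, plus strand, GRCm38), a low-oxygen-responsive relative of *Ndufa4*, was the only gene of the 87 below the unadjusted threshold. Its level in the vehicle mice was 0.80 CPM at the lowest, 1.12 at the median and 1.69 at the highest, and in the indole mice 1.18, 1.71 and 2.21. All 7 indole mice lay above the vehicle median, yet the groups overlapped, since vehicle mouse G10 (1.69) lay above the indole mice G2 (1.52), G5 (1.57) and G12 (1.18). The log2 fold change was 0.57 ± 0.22 (SE, *n*=7 each), with a 95% interval of 0.11 to 1.03, an unadjusted *p* of 0.0175 and an adjusted *p* of 0.998 (edgeR quasi-likelihood test, Benjamini-Hochberg adjustment). Exact permutation of the group labels, in all 3432 ways and two-sided, gave *p*=0.00816, and without indole mouse G5 *p*=0.0105; the gene was picked out by its *p* on these same values, so this is no independent support. The whole gene rests on 344 reads, between 12 and 39 per mouse.

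*Ndufa4* itself, which was named as a complex I subunit and is now placed in complex IV, ran from 209.6 through 224 to 293 CPM in the vehicle mice and from 231 through 261 to 357 CPM in the indole mice. Its 7 indole values all lay above the vehicle median, and vehicle mice G6 and G10 lay above all indole values but that of G5. The log2 fold change was 0.16 ± 0.10 (SE), unadjusted *p*=0.136 in edgeR's quasi-likelihood test. The ratio of *Ndufa4l2* to *Ndufa4* was 0.42 higher in the indole group on the log2 scale (exact permutation test, two-sided, *p*=0.0542, adjusted *p*=0.217 over the 4 isoform pairs tested). Without indole mouse G5 the ratio differed by 0.50 (exact *p*=0.0233), and leaving out vehicle mice G4, G10 or G11 or indole mouse G12 also brought the unadjusted exact *p* under 0.05.

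**Figure D3:**
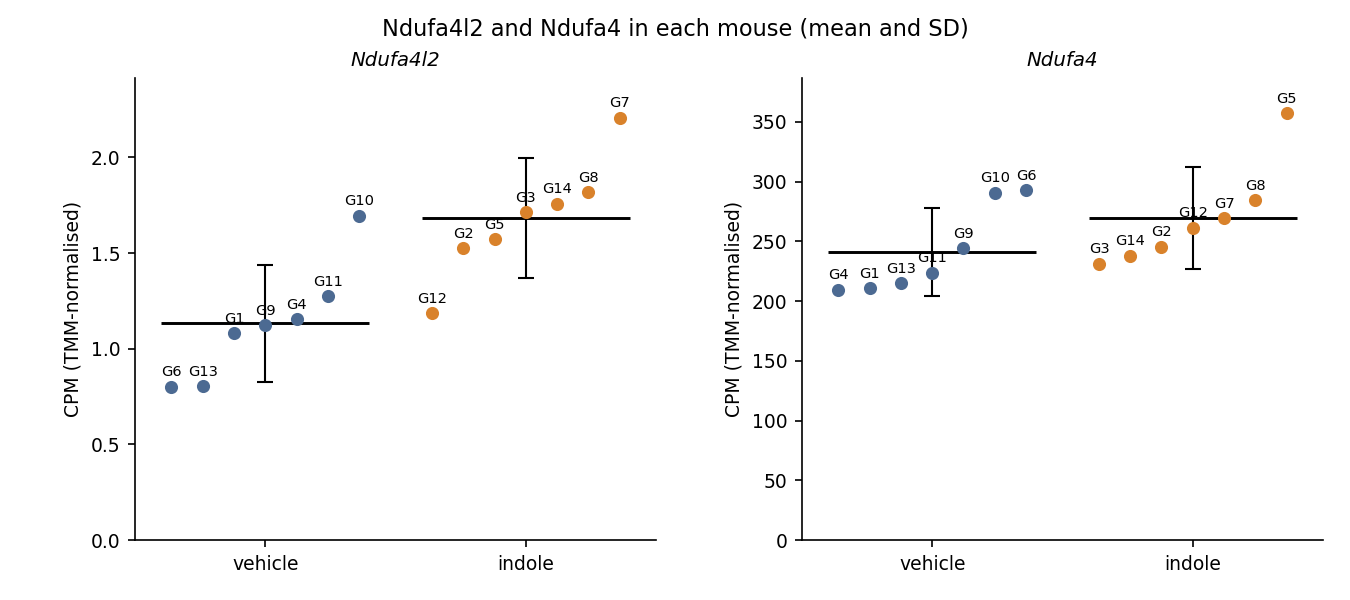
TMM-normalised CPM of *Ndufa4l2* and *Ndufa4* in each mouse, named by its library; horizontal bars are group means and error bars the SD (*n*=7 each). For *Ndufa4l2* all indole mice lie above the vehicle median of 1.12, and for *Ndufa4* the indole mouse G5 stands apart at 357.

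The 6 core subunits of complex I with reads varied little between mice, each with a coefficient of variation below the median of the 79 genes. *Ndufs1*, the largest subunit, ran from 121 to 150.1 CPM in the vehicle mice and from 121 to 156 in the indole mice, so that the groups covered nearly the same range, with a log2 fold change of 0.02 ± 0.07 (SE). The accessory subunit *Ndufa10* varied least of the 79, at 6.13% over the 14 mice beside a median of 14.3%, and its log2 fold change was 0.02 ± 0.07. The 95% interval reached up to 0.18 for *Ndufs1* and up to 0.16 for *Ndufa10*.

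Among the accessory subunits, *Ndufs5* ran from 66.0 through 75.5 to 96.2 CPM in the vehicle mice and from 76.5 through 85.9 to 115 in the indole mice. The vehicle median was exceeded by all 7 indole mice, although the groups overlapped, and the log2 fold change was 0.19 ± 0.10 (SE, unadjusted *p*=0.068, edgeR). *Ndufb1-ps*, which has no coding sequence in the annotation used here, had one of 0.24 ± 0.14. *Ndufa12*, an accessory subunit of the matrix arm, went its own way. It ran from 22.1 to 59.9 CPM in the vehicle mice and from 20.0 to 48.3 in the indole mice, with its highest values in vehicle mouse G9 and indole mice G8 and G12, a coefficient of variation of 33.4% and a log2 fold change of −0.03 ± 0.25 (SE). *Ndufs3*, a core subunit, was listed at 0 reads in all 14 libraries, where a count of 0 allows up to 3 counts in a library by counting error alone. The complex is known to need this subunit, and the empty row was not examined further. *Ndufb2*, which overlaps another protein-coding gene on its own strand, held only 1903 reads in all, from 5.38 to 10.1 CPM over all mice.

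Complex II, succinate dehydrogenase, is the only one whose subunits are all nuclear, and it also serves the tricarboxylic acid cycle. *Sdha*, the flavin-bearing subunit that oxidises succinate, ran from 477 through 489.9 to 539.6 CPM in the vehicle mice and from 434 through 493 to 544 in the indole mice. The medians nearly coincided and the indole mice spread more widely on both sides. The log2 fold change was −0.03 ± 0.07 (SE, 95% interval −0.18 to 0.11). *Sdhb*, the iron-sulphur subunit, had 0.08 ± 0.08, and all 7 indole mice lay above its vehicle median. The membrane anchors *Sdhc* and *Sdhd*, which bind ubiquinone, had 0.05 ± 0.09 and 0.08 ± 0.09. *Sdhd* ran from 200.6 to 240.2 CPM in the vehicle mice and from 180.3 to 295 in the indole mice, so both its lowest and its highest value came from indole mice. None of the 4 genes came near the unadjusted threshold, the lowest *p* being 0.325 (edgeR).

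Complex III passes electrons from ubiquinol to cytochrome c. *Uqcr10*, a small subunit next to the Rieske protein and the highest of the complex per length, ran from 106 through 121 to 145 CPM in the vehicle mice and from 111 through 128 to 183 in the indole mice. Indole mouse G5 held the top value and the other values overlapped. The log2 fold change was 0.12 ± 0.10 (SE). *Uqcrfs1*, the Rieske iron-sulphur protein, had 0.05 ± 0.08. The genes of the paired core proteins differed greatly in counted RNA: *Uqcrc2* stood at 93.1 CPM per kb and *Uqcrc1* at 3.65, with 58591 and 3725 reads. The cause of this gap was not tested, and protein was not measured. *Uqcrc1* ran from 10.6 through 13.9 to 17.9 CPM in the vehicle mice and from 11.8 through 13.3 to 24.7 in the indole mice. Its indole median lay under its vehicle median, while the indole mice G7 (20.1) and G12 (24.7) exceeded all vehicle mice. Its log2 fold change of 0.21 ± 0.16 (SE), the highest of the complex, thus came with only 3 of 7 indole mice above the vehicle median, and that of *Uqcrc2* was −0.01 ± 0.07.

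Complex IV reduces oxygen, and many of its subunits exist as a liver or general form and a form of muscle, lung or testis. The liver held the general forms throughout. *Cox4i1*, *Cox6a1*, *Cox6b1*, *Cox7b* and *Cox8a* had 113068, 62475, 49968, 43076 and 52343 reads over the 14 mice. Their partners *Cox4i2*, *Cox6b2* and *Cox8b* had 52, 21 and 4 reads, and *Cox6a2*, *Cox7b2* and *Cox8c* had 0. Per length, *Cox4i2* made up 0.092 ± 0.053% (SD) of its pair in the vehicle mice and 0.0895 ± 0.0744% in the indole mice. Among genes with *Cox* names, the only second form with reads in all mice was *Cox7a1*, the muscle form paired with *Cox7a2*, at 169 reads, between 2 and 24 per mouse. It made up 0.886 ± 0.321% of the pair per length in the vehicle mice and 0.685 ± 0.427% in the indole mice, too few reads for the exact test that was set for pairs with at least 3 in every mouse. Skeletal and heart muscle markers summed to at most 0.136 CPM in any library, with 6 of the 8 at 0 in every mouse. The 5 brown adipocyte markers summed to between 1.80 and 38.1 CPM, with the highest sum in indole mouse G2. Only 1 of these 5 was tested (log2 fold change 0.78 ± 0.59 SE, unadjusted *p*=0.209, edgeR).

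*Cox7a1* ran from 0.284 through 0.721 to 1.20 CPM in the vehicle mice and from 0.135 through 0.375 to 1.57 in the indole mice. Its indole median lay under its vehicle median, and the highest indole mouse, G5, was above all vehicle mice. The log2 fold change was −0.16 ± 0.43 (SE), the widest error among the 79, with a 95% interval of −1.05 to 0.74. *Cox7a2*, the liver form, ran from 117 through 139.5 to 173 CPM in the vehicle mice and from 134 through 155 to 206 in the indole mice, with 5 of 7 indole mice above the vehicle median. Its log2 fold change of 0.14 ± 0.10 (SE) was the highest of complex IV, and that of *Cox6a1* was 0.12 ± 0.10. *Cox7a2l*, a factor that joins complexes III and IV into supercomplexes and is not a regular subunit, had 0.09 ± 0.08. *Cox5b-ps* carries the name of a copy of *Cox5b* and encodes the same number of residues, 129. Only reads that mapped to 1 place were kept, so reads fitting both genes may have been left out. Both values (0.12 ± 0.10 and 0.06 ± 0.11) are therefore uncertain.

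Complex V holds the most abundant of the nuclear genes of the pathway. *Atp5b*, the catalytic beta subunit, ran from 1360.4 through 1499 to 1697 CPM in the vehicle mice and from 1380.4 through 1535 to 1843 in the indole mice. The groups overlapped over most of their range. Its log2 fold change was 0.03 ± 0.08 (SE, 95% interval −0.13 to 0.19), and that of *Atp5a1*, the alpha subunit of the same ring, was −0.04 ± 0.09. *Atp5k*, subunit e at the dimer interface in the membrane, had the highest of the complex at 0.26 ± 0.14 (unadjusted *p*=0.0708, edgeR). It ran from 60.6 through 82.0 to 106 CPM in the vehicle mice and from 77.0 through 89.9 to 138 in the indole mice, and 6 of 7 indole mice lay above the vehicle median. *Atp5l*, subunit g of the same interface, had 0.15 ± 0.12.

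The proton-carrying c ring of complex V is built from 1 mature protein that 3 genes encode. *Atp5g3* supplied 70.7 ± 0.923% (SD) of their summed level per length in the vehicle mice and 70.3 ± 0.719% in the indole mice. *Atp5g2* supplied 18.7 ± 0.990% and 19.3 ± 0.992%, and *Atp5g1* 10.6 ± 0.692% and 10.4 ± 0.610%. The order was thus *Atp5g3*, *Atp5g2*, *Atp5g1* in both groups, with gaps many times the spread between mice. In raw reads, without regard to length, *Atp5g1* (36650) exceeded *Atp5g2* (22460), so the place of this pair rests on the exon lengths. The log2 ratio of *Atp5g1* to *Atp5g3* differed by −0.01 (exact permutation *p*=0.739), that of *Atp5g2* to *Atp5g3* by 0.05 (exact *p*=0.286, adjusted *p*=0.558) and that of *Atp5g2* to *Atp5g1* by 0.07 (exact *p*=0.418, adjusted *p*=0.558).

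Seen mouse by mouse, the genes of the complexes mostly went up and down together. For each gene the deviation of a mouse from the mean of all 14 mice was taken on the log2 scale, and the median over the 79 genes was formed for each mouse. It was highest in indole mouse G5 at 0.42, and 78 of the 79 genes lay above their own mean in that mouse. Vehicle mice G6 (0.19) and G10 (0.13) and indole mice G7 (0.12) and G8 (0.10) followed. The lowest were vehicle mice G4 (−0.24), G13 (−0.21) and G1 (−0.17), in which 2, 2 and 3 of the 79 genes lay above their mean. Taken complex by complex, 5 mice were above 0 in all 5 complexes and 5 were below 0 in all 5. Complex II stood apart in some mice. Its own median was 0.06 in indole mouse G14, 0.05 in G12 and −0.14 in G3, where the 79 genes had −0.09, −0.04 and −0.05. Both groups held mice near the top and near the middle of this order, and the 3 lowest mice were all from the vehicle group.

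**Figure D4:**
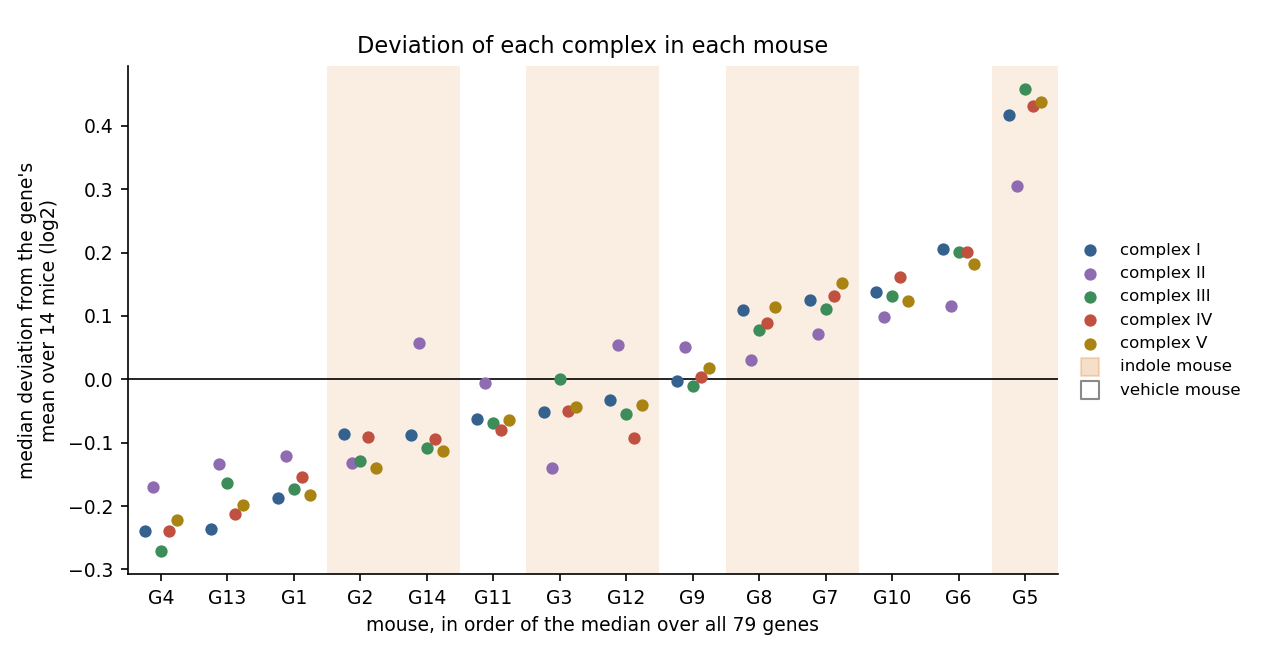
Median deviation (log2) of the tested genes of each complex from their mean over 14 mice, for each mouse, in rising order of the median over all 79 genes; shaded columns are indole mice and white columns vehicle mice. Complexes I, III, IV and V lie close together within a mouse, complex II stands apart in some, such as G14, and indole mouse G5 stands above all others at 0.42 over all genes.

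The genes of complex I summed to 3418 ± 388 CPM (mean ± SD, *n*=7) in vehicle mice and 3665 ± 456 in indole mice, a difference of 7.21%. Complex II summed to 1147 ± 75.4 and 1170.0 ± 107 (2.04%), complex III 1367 ± 160 and 1449.98 ± 175 (6.06%), complex IV 2186 ± 277 and 2354 ± 329 (7.66%) and complex V 4450 ± 449.9 and 4694 ± 546 (5.49%). Each difference was smaller than 1 SD of either group. As log2 ratios they were 0.10, 0.03, 0.08, 0.11 and 0.08, and without indole mouse G5 they were 0.04, −0.00, 0.02, 0.04 and 0.02. Without G5 the median log2 fold change of the 79 genes was 0.03 instead of 0.11, with 65 of 79 above 0. All 87 genes together took between 1.13% and 1.54% of a library's counts, the latter in G5. In tissue samples like these, fewer cells of a type and less RNA per cell cannot be told apart.

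The common movement of the genes went with a difference between genes of short and of long coding sequence in the same libraries. The proteins of this pathway are short, with a median of 135 residues and 60.3% of the 78 genes with a coding sequence at or under 150, against 465 residues and 6.53% over 11450 genes tested. A score was formed for each mouse as the median deviation of the 701 other genes of up to 150 residues minus that of the 3930 other genes over 600 residues. It is called the short-transcript score below, but it rests on coding length, and transcript length was not examined. The score was highest in G5 at 0.42 and lowest in G4 at −0.28, the mice at the ends of the order of the 79 genes, and the 5 mice with the highest scores were the same 5 in both orders, as were 4 of the 5 lowest. Its mean was −0.06 ± 0.18 (SD) over vehicle mice and 0.05 ± 0.20 over indole mice. TMM factors ran from 0.931 in G5 to 1.08 in G3.

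The same slope with length appeared in the fold changes. Other genes of up to 150 residues had a median log2 fold change of 0.07 and 73.9% of them lay above 0, those above 150 and up to 300 residues had 0.03, those above 300 and up to 600 had 0.00 and those over 600 had −0.03. The genes of oxidative phosphorylation had 0.12 (47 genes), 0.10 (20), 0.03 (9) and −0.00 (2) in these classes. With the score added to the edgeR model, a fit chosen after seeing the data, the median over the 79 genes was 0.01 and 50 lay above 0, and the median was 0.01 in complex I, −0.01 in complex II, 0.00 in complex III, 0.01 in complex IV and 0.01 in complex V. *Ndufa4l2* kept 0.53 with an unadjusted *p* of 0.0347. What the score stands for, and its part in the higher values of the indole mice, was not tested.

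**Figure D5:**
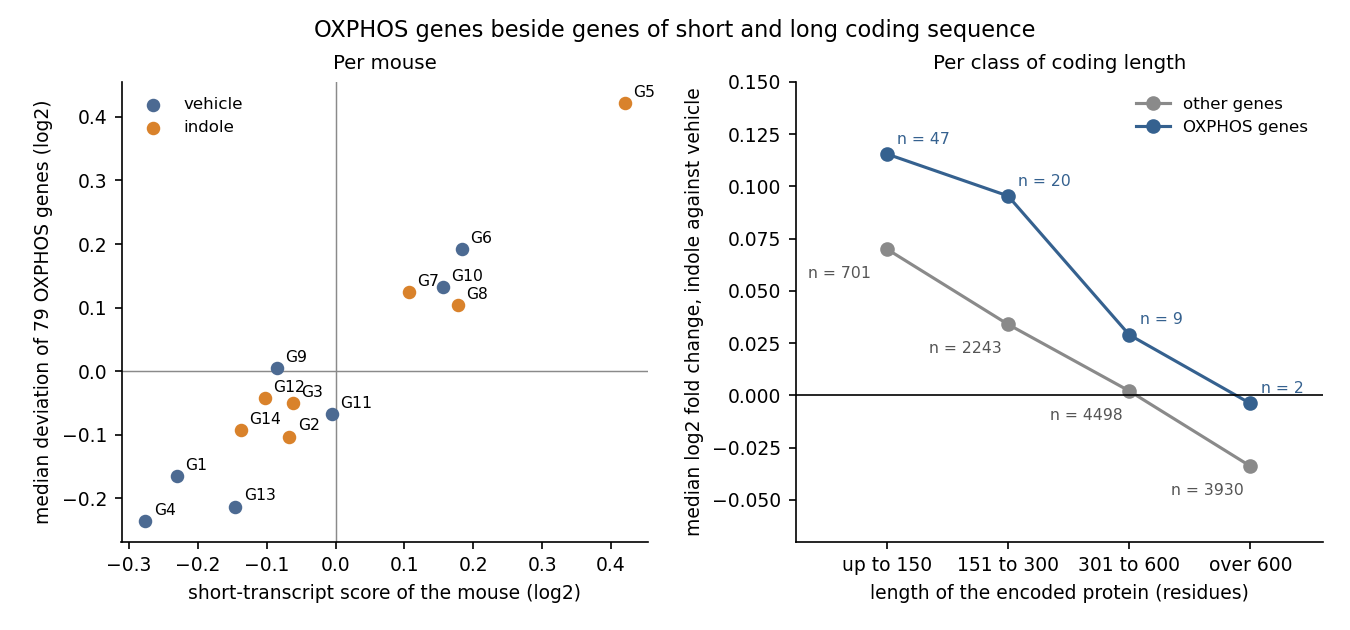
Left, the median deviation of the 79 genes (log2) against the short-transcript score (log2) of each mouse, coloured by group; right, the median log2 fold change in classes of protein length for the pathway's genes and for all other genes tested, with the number of genes. Mouse G5 is at the top of both scales on the left, and on the right both lines fall with length, from 0.12 to −0.00 and from 0.07 to −0.03.

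Red cell markers had higher fitted values in the indole mice. All 5 tested of 6 erythroid markers were higher in the indole group with an unadjusted *p* below 0.05 in edgeR and an adjusted *p* of 0.998, the untested one being *Slc4a1*, beside 1.53% of all genes tested that were higher at that threshold. Their summed level ran from 204 to 384 CPM over vehicle mice and from 263 to 1094 over indole mice, with the highest values in indole mice G5 (1094) and G14 (1047). G14 lay under 0 for the genes of oxidative phosphorylation (−0.09) while G5 was the highest mouse, and the part of red cell RNA in the result was not tested. Of 8 Kupffer cell and macrophage markers 7 were higher, none of them at an unadjusted *p* below 0.05 (lowest 0.154, edgeR). Their sums ran from 69.1 to 201 CPM over vehicle mice (median 140) and from 92.6 to 364 over indole mice (median 139). The value of 364 was that of G8. The hepatocyte markers, *Alb* the most abundant, were all 6 present, with 4 higher and 2 lower, and summed to between 64042 and 99389 CPM. One of them, *Ttr*, was below the unadjusted threshold (0.24 ± 0.08 SE, unadjusted *p*=0.0110, adjusted *p*=0.998, edgeR). T and B cell markers summed to at most 2.62 CPM.

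Genes that work with the complexes had medians between −0.06 and 0.12, and only the mitochondrially encoded subunits came close to the 0.11 of the nuclear genes. The mitochondrially encoded subunits had a median log2 fold change of 0.12, with 12 of 13 above 0 and none below an unadjusted *p* of 0.05. *mt-Co1*, the catalytic subunit of complex IV, ran from 20577 through 23562 to 24895 CPM in the vehicle mice and from 20885 through 24831 to 28476 in the indole mice, with a log2 fold change of 0.12 ± 0.08 (SE). Indole mouse G5 was the highest of the 14 for the summed mitochondrial subunits too, at 63383 CPM. Indole mice G7 (55717) and G8 (55736) also lay above all vehicle mice. Some mice kept less to the order of the nuclear genes. Vehicle mice G1 (53772) and G13 (53995), among the lowest for the nuclear genes, lay above the vehicle median of 51731. Indole mouse G12 had 61667 CPM, with a nuclear median deviation of −0.04. With the short-transcript score in the model, the median log2 fold change was 0.08 for the mitochondrial subunits and 0.01 for the nuclear genes. Levels of mitochondrial and nuclear transcripts were not compared, since polyA selection may catch them unequally.

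Assembly factors, which build the complexes and are not part of them, had a median of 0.06 with 41 of 55 tested above 0. The most abundant, *Lrpprc*, which stabilises mitochondrial mRNAs, had −0.03 ± 0.08 (SE). *Pet100*, needed for complex IV assembly, ran from 8.34 through 10.1 to 13.4 CPM in the vehicle mice and from 11.8 through 12.7 to 18.1 in the indole mice (0.35 ± 0.12, unadjusted *p*=0.00796, edgeR). *Cox11*, which delivers copper to complex IV, ran from 13.9 through 14.7 to 16.0 CPM in the vehicle mice and from 9.87 through 12.04 to 14.3 in the indole mice (−0.27 ± 0.09, unadjusted *p*=0.00503). The pair thus lay on opposite sides of 0, the groups overlapped for both, and neither passed the adjusted test (adjusted *p*=0.998, edgeR with Benjamini-Hochberg adjustment). They were the 1 higher and the 1 lower of the 55 below the unadjusted threshold, beside 1.53% and 2.28% of all genes tested. The electron carriers and subunits outside the name rule, such as cytochrome c and the electron transfer flavoprotein, were above 0 for 6 of 6 with a median of 0.06, and *Etfa* had 0.06 ± 0.07.

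The mitochondrial ribosomal proteins were above 0 for 71 of 76 tested with a median of 0.07. *Mrps18c* was the one of 76 below the unadjusted threshold (0.25 ± 0.11, unadjusted *p*=0.0289, edgeR), beside 3.81% of all genes tested, and *Mrpl12*, the most abundant, had 0.02 ± 0.07. Cytosolic ribosomal proteins were above 0 for 75 of 88 with a median of 0.07. The carriers of ADP, ATP and phosphate, listed together with the uncoupling proteins, had a median of 0.04 with 4 of 4 tested above 0. *Slc25a5* was the most abundant of this list at 0.05 ± 0.08. Coenzyme Q synthesis had 0.03 with 9 of 13 above 0, and its most abundant gene *Coq8a* had 0.02 ± 0.07.

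The enzymes of the cycle had a median of −0.01 with 6 of 14 above 0, and the median ran from −0.031 to 0.022 when single mice were left out, the highest without indole mouse G2, so its sign was not settled. *Suclg2*, the most abundant, had −0.02 ± 0.06 (SE). The regulators of mitochondrial gene expression had a median of −0.06 with 4 of 16 above 0, and one of 0.00 with the short-transcript score in the model. *Pprc1*, a coactivator related to PGC-1alpha, ran from 2.93 through 4.12 to 6.70 CPM in the vehicle mice and from 1.76 through 2.49 to 4.15 in the indole mice. The groups overlapped, and its log2 fold change was −0.61 ± 0.21 (SE, unadjusted *p*=0.00862, adjusted *p*=0.998 in edgeR's quasi-likelihood test with Benjamini-Hochberg adjustment). *Ppara*, the most abundant regulator and a receptor that drives fatty acid oxidation, had −0.22 ± 0.19. Without indole mouse G5 the medians were 0.059 for the mitochondrially encoded subunits, 0.022 for assembly factors, 0.020 for electron carriers and 0.039 for mitochondrial ribosomal proteins. In the same fit they were 0.019 for the list of ADP, ATP, phosphate and uncoupling carriers and −0.013 for coenzyme Q synthesis. They were −0.021 for the tricarboxylic acid cycle and −0.041 for the regulators.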

How the data were processed

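RNA from the right liver lobe of 14 mice was sequenced on an Illumina NovaSeq system as strand-specific polyA libraries. Per the study's methods and the submitters' processing notes, the authors used HISAT2 for alignment to GRCm38, went on with reads that mapped to 1 place only and compared groups in DESeq2. The deposited table holds raw read counts per gene, not normalised; the counting tool and its strand setting are not given in the sources used here, so reads of the 7 genes that overlap another protein-coding gene on the same strand may be lost or split. Total counts of 15197498 to 21060376 per library set the precision of low genes, and intervals cover the spread between mice.

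Groups came from the treatment label. Counts were fitted with edgeR 4.0.16 (TMM, filterByExpr, robust quasi-likelihood test, R 4.3.3), indole against vehicle, with Benjamini-Hochberg adjustment over all 12653 genes that passed. The code was tested on simulated data. The labels give neither batch nor pairing, and cages or litters are unknown. Alternatives were DESeq2 1.42.0, limma 3.58.1 voom with sample weights, upper quartile and RLE scaling, the table without a filter, 1 surrogate variable (sva 3.50.0) and leaving out each mouse. Isoform ratios used counts plus 0.5 and exact permutation tests, levels the log2 of CPM plus 0.5. Exon lengths were those deposited with the counts, and for all 87 genes they equalled the summed exon bases of GENCODE M21. Coding lengths came from GENCODE M21. The genes and lists were chosen with earlier results of these data known. Genes named with values were, by rule, those with an unadjusted *p* below 0.05, the highest and lowest of each complex by level per length and by fold change, isoform pairs, and genes whose role departs from their name; from related lists, the most abundant and those with an unadjusted *p* below 0.05. Others were named after their values were seen (among them *Ndufs1*, *Ndufs5*, *Ndufb2*, *Sdhb*, *Uqcrfs1* and *Cox5b*). The values of 1 gene of complex I are not reported here on their own.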

Additional observations from a re-analysis of the deposited data

Results flagged for a closer look

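A single mouse decided most of the flagged values. In a group of 7, a mouse was flagged where its gap to the nearest other mouse was an unusually large share of the group's whole range, which chance does in about 1 of 20 groups; 84 such comparisons were made and 11 were flagged. Indole mouse G5 led its group in the summed level of complex I, where the gap was 0.612 of the range, of complex III (0.591) and of complex IV (0.572). The same mouse was the highest for *Ndufa4* (0.577), *Uqcr10* (0.632), *Cox7a2* (0.637), *Atp5k* (0.570), *Cox7a2l* (0.597) and *Coq8a* (0.629). In the vehicle group, mouse G11 was the highest for *Suclg2* at 310.1 CPM (0.588) and mouse G4 for *Pprc1* at 6.70 CPM (0.573). The genes of G5 move together, so its flags are not separate events.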

How the results depend on the processing

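The count of genes with an adjusted *p* below 0.05 among the 79 was 0 in edgeR, DESeq2 and limma under all alternatives run. *Ndufa4l2* had an unadjusted *p* below 0.05 in every fit, with a log2 fold change between 0.50 and 0.69 when single mice were left out. The count at an unadjusted *p* below 0.05 was 1 in edgeR, 5 with 1 surrogate variable (*Atp5k*, *Ndufa4l2*, *Ndufa8*, *Ndufb1-ps* and *Ndufs5*; 5.12% of all genes in that fit) and between 1 and 8 when single mice were left out: 8 without vehicle mouse G6 (4.90% of all genes), 5 without G10 (4.22%), 3 without G2 or G14 (4.17% in each) and 2 without G3 (4.33%). The cause was not tested. The median log2 fold change over all 79 ran from 0.034 (without G5) to 0.15 when single mice were left out. The *Ndufa4l2* to *Ndufa4* ratio then ran from 0.30 to 0.50, and the *Atp5g1* to *Atp5g3* ratio from −0.053 to 0.014 (positive without G2). The list medians of coenzyme Q synthesis (−0.013 to 0.058) and of the tricarboxylic acid cycle (−0.031 to 0.022) also took both signs.

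Signs near 0 turned. With the short-transcript score in the model, an alternative added once the data had been seen, the log2 fold change was −0.028 for *Sdhc*, −0.017 for *Atp5b*, −0.062 for *Atp5g1*, −0.027 for *Atp5g3*, −0.012 for *Cox4i1*, −0.036 for *Cox8a*, −0.0068 for *Slc25a5* and −0.041 for *Mrpl12*, which was −0.0074 with 1 surrogate variable. With single mice left out, values of both signs were found for *Ndufa12* (−0.13 to 0.16), *Uqcrc2* (−0.034 to 0.017), *Atp5a1* (−0.078 to 0.013), *Atp5b* (−0.015 to 0.059), *Atp5g1* (−0.026 to 0.12), *Cox7a1* (−0.51 to 0.014), *Coq8a* (−0.028 to 0.050), *Lrpprc* (−0.072 to 0.0030), *Mrpl12* (−0.023 to 0.044) and *Suclg2* (−0.028 to 0.0057). No paired analysis was possible because the labels give each mouse a number of its own.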
